A study of Rattus norvegicus with 18 samples.

Results

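Genes of the meningeal fibroblast and its collagen matrix were examined in the prefrontal cortex (PFC) of 18 rat pups. The set was a list of 35 gene symbols drawn up around *Postn* with earlier results from these pups known. Its members were chosen by known gene function and by measured values, namely levels, correlation with *Postn* and the changes between groups, so these are given here as descriptions. A row under the listed symbol was found for 34 of the 35 genes, out of 32623 genes listed in all, and *Col1a2* was not analysed here. *Crabp2* had 2 identifiers. The main one is used below, and the other, with estimated counts between 0 and 14.36, did not pass the filter on low counts, so reads of *Crabp2* may be divided between them. All 34 genes passed that filter under one identifier, among 15703 genes tested.

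The pups were Sprague Dawley rats at postnatal day 14 (P14), with 6 in each group and the same age, strain and tissue in all groups. Saline (SAL) pups were the controls. Postnatal oxycodone (PNO) pups had dams that were gavaged with the opioid oxycodone at 15 mg/kg/day from birth of the litter until weaning. In utero oxycodone (IUO) pups had dams that were started at 10 mg/kg/day for 5 days, raised by 0.5 mg/kg/day over 10 days to 15 mg/kg/day, then mated and kept on drug until weaning, so that exposure spanned gestation and nursing. The pups reached oxycodone through the dam, and dose in the pup is not given. The sources used here do not tie single pups to dams or litters, so p-values measure only the spread between these pups.

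Fibroblasts of the pia, arachnoid and dura, and those around larger brain vessels, lay down the fibrous collagen of the brain's coverings. Collagen chains are folded in the endoplasmic reticulum, trimmed outside the cell into fibrils, spaced by small proteoglycans and cross-linked by lysyl oxidases. Meningeal fibroblasts are also known as a source of retinoic acid and of IGF2 for the developing cortex. Fibroblasts can stay attached to a dissected piece of cortex in its thin pial layer and around vessels. In bulk RNA, fewer cells of a type and less RNA per cell cannot be told apart.

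Total estimated counts per pup ran from 18381819 to 26084780, with a median of 22726306. Summed levels of 10 neuron markers listed for cortex, not all of them particular to it, were between 2389 and 5648 TPM in every pup. They were led by *Nrgn* and *Snap25*, and TPM is a read share corrected for gene length. Genes of neighbouring regions varied widely. The sum over 11 striatal neuron markers spanned 87.4 to 1270 TPM, that over 12 choroid plexus markers 10.1 to 2712 TPM and that over 11 myelin markers, led by *Mbp*, 1479 to 11767 TPM. PNO pup 1 was highest for choroid plexus and myelin.

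The promoters of 3 members stand for what the measurements separated, namely *Postn*, which was low in every IUO pup, and *Aldh1a2* and *Lum*, which followed *Col1a1* from pup to pup. RefSeq (GRCr8) had a promoter window for 22 of the 34 genes, 23 windows in all. The 250 bases before the start of each gene are printed 5′ to 3′ on the gene's strand. Capitals mark matches to the TATA box (letters TATAAA), the CCAAT box (its own letters) or the GC box (letters GGGCGG). Each was searched on both strands, and a match on the opposite strand appears as its reverse complement. No matches overlapped in these 3 windows. The windows are chr2:140677811-140678060, plus strand, for *Postn*, chr8:80758391-80758640, plus strand, for *Aldh1a2* and chr7:34245456-34245705, plus strand, for *Lum*.
Postn: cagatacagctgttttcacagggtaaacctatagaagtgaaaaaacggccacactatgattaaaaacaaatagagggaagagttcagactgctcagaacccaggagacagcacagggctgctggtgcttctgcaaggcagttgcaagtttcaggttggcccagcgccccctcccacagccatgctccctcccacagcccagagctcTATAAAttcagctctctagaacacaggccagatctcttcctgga
Aldh1a2: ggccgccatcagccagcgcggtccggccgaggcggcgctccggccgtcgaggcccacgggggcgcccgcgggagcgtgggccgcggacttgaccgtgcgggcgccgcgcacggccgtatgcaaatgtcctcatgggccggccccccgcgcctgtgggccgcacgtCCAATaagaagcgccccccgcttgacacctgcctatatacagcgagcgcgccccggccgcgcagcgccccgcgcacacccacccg
Lum: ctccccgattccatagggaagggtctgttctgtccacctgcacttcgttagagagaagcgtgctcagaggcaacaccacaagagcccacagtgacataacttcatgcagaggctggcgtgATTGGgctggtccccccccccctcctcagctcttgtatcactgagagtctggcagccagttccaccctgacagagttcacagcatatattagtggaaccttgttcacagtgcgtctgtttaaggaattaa
The *Postn* window held a TATAAA 44 to 39 bases before the start. The *Aldh1a2* window held a CCAAT 85 to 81 bases before it, and the *Lum* window the reverse form 130 to 126 bases before it. TATAAA was present in 3 of the 23 windows (13.04%) and in 12.9% of all 33469 promoters, CCAAT in 5 (21.7%) and in 34.0%, and GGGCGG in 12 (52.2%) and in 30.5%. A match is only a run of letters in this window.

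*Postn* encodes periostin, a matricellular protein that binds collagen and is made by fibroblasts and osteoblasts. In TMM-normalised CPM, the scale used between pups, *Postn* was 8.53, 16.8, 9.86, 20.2, 14.0 and 19.4 in SAL pups 1 to 6. It was 7.63, 22.7, 10.8, 21.2, 18.1 and 19.0 in PNO pups 1 to 6. It was 6.27, 6.64, 5.97, 6.05, 5.56 and 5.56 in IUO pups 1 to 6. All 6 IUO pups lay below all 12 other pups, and they also lay close together, with a coefficient of variation (CV) of 6.97% against 32.9% in SAL and 36.3% in PNO. The log2 fold change of *Postn* was −1.46 (SE 0.251) in IUO compared with PNO and −1.30 (SE 0.250) in IUO compared with SAL. It was 0.16 (SE 0.243) in PNO compared with SAL. Below, 3 changes given together follow the reverse of this order, with PNO over SAL first and IUO over PNO last. On the TPM scale its group means were 7.68 ± 2.68 (SD, n = 6) in SAL, 8.002 ± 2.62 in PNO and 3.12 ± 0.174 in IUO.

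**Figure D1:**
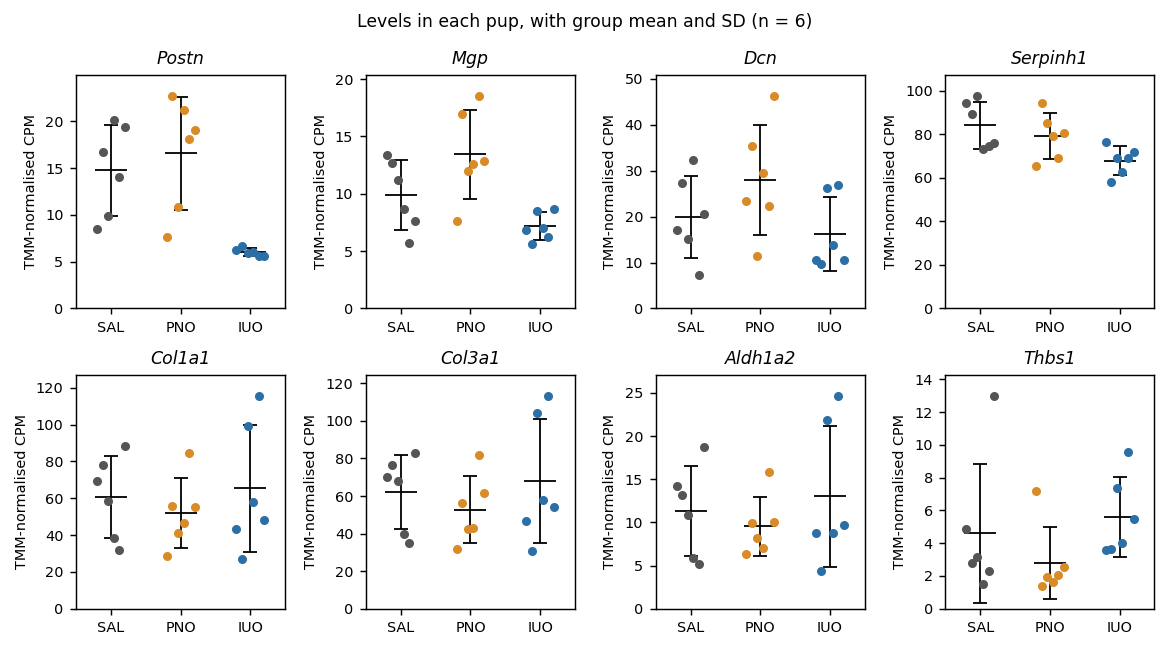
Levels in TMM-normalised CPM (y axis, linear, from 0) of 8 genes in each pup (points) by group (x axis), with the group mean and SD (bars, n = 6). *Postn* is between 5.56 and 6.64 CPM in all IUO pups and at 7.63 CPM or more elsewhere, while *Col1a1*, *Col3a1* and *Aldh1a2* overlap widely between groups.

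*Postn* was the only one of 34 members past an adjusted p of 0.05 in edgeR's quasi-likelihood fit for IUO against PNO (adjusted p = 0.0315), where 0.0637% of all genes tested, 10 genes, were called (1 to 95 genes with a pup left out). The list was built with this contrast in view, so nothing is read from that count. Leaving out PNO pup 2, 4 or 6 or IUO pup 2, 3, 4, 5 or 6 took this adjusted p to between 0.0778 and 0.102, and with any of the other 4 of the 12 pups left out it was 0.0496 or less. The log2 fold change stayed between −1.62 and −1.35 over these 12 fits. Against SAL the adjusted p of *Postn* was 0.114, and edgeR called no gene in either comparison with SAL (0% of 15703). There, 706 genes had an unadjusted p under 0.05 for PNO and 1081 for IUO, DESeq2 called 1 and 49 genes and limma-voom 0 and 43. IUO and SAL levels of *Postn* did not overlap, the IUO ones being lower, which held for 0.376% of all genes tested. IUO and PNO levels did not overlap either, the IUO ones being lower, which held for 0.86% of all genes tested. Both IUO comparisons use the same IUO pups, and those with SAL share the SAL pups.

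Markers of several other cells moved with *Postn* within groups. For striatal, myelin, red blood cell and bone, muscle and skin markers the sign in IUO was the opposite of that in SAL and PNO. Within IUO, however, *Postn* spanned only 5.56 to 6.64 CPM, on 117 to 155 counts. Each r within IUO thus rests on small differences, from which counting error was not separated. Across the 6 pups of a group, Pearson's r between log2 CPM of *Postn* and the summed striatal level was −0.99 in SAL, −0.80 in PNO and 0.94 in IUO. Here and below, r of a sum was taken on log2 of the summed TPM plus 1. The sum ran from 87.4 to 1056 TPM in SAL, from 98.9 to 811 in PNO and from 263 to 1270 in IUO, all 11 markers being above 0 in every pup. All 11 log2 fold changes were above 0 in IUO against SAL (median 0.52) and against PNO (median 0.85), none called. The most abundant was *Ppp1r1b*, at 25.5 to 754 TPM. The myelin sum had r −0.24, −0.63 and 0.87 with *Postn* within SAL, PNO and IUO, and all 11 myelin log2 fold changes were below 0 in IUO against SAL (median −0.61) and against PNO (median −1.39). EdgeR called none of these, and for IUO against PNO all 11 had an unadjusted p under 0.05 and were lower, as were 9.14% of all genes, with a smallest adjusted p of 0.0725. The myelin sum ran from 1479 to 5746 TPM in SAL, from 2260 to 11767 in PNO and from 1747 to 4008 in IUO. The choroid plexus sum had r −0.74, −0.80 and −0.12, and 10 and 11 of 12 markers had log2 fold changes below 0 in IUO against SAL and against PNO. The sum of 12 mural cell markers had r −0.56, −0.76 and −0.96 with *Postn* within SAL, PNO and IUO, and ran from 74.3 to 157 TPM, from 81.8 to 171 and from 91.6 to 134. The sum of red blood cell genes, with 3 of 8 listed symbols found, had r 0.68, 0.76 and −0.85. It ran from 1528 to 6616 TPM in SAL, from 1205 to 6416 in PNO and from 3321 to 22795 in IUO, and none of its 4 tested rows was called, with all 4 log2 fold changes above 0 in IUO against each other group (medians 1.14 and 1.15). Bone, muscle and skin markers, 14 of 14 found, had r 0.75, 0.54 and −0.38 within groups and 0.60 over all pups, and 7 of their 8 tested genes had log2 fold changes below 0 in IUO against each other group, none called. Astrocyte markers had r −0.11, −0.87 and −0.65 with *Postn* within SAL, PNO and IUO, endothelial markers −0.87, 0.11 and −0.0005, and border macrophage markers 0.31, 0.02 and −0.35. The part of these tissues in the *Postn* difference was not tested.

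**Figure D2:**
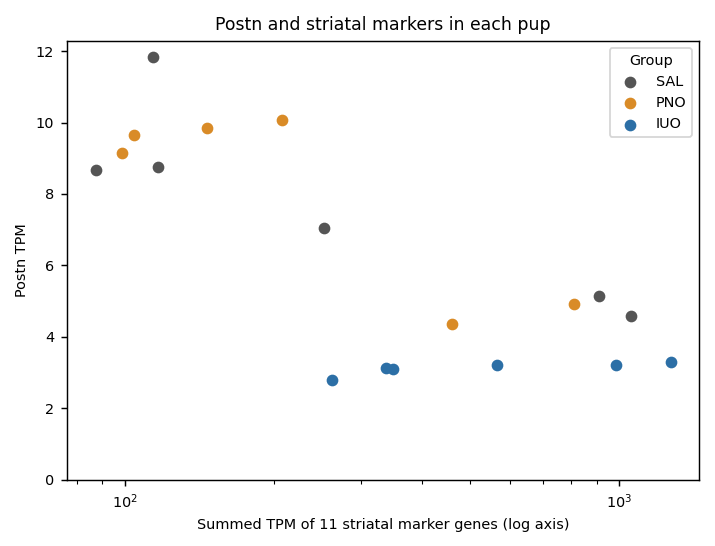
*Postn* TPM (y axis, linear) against the summed TPM of 11 striatal marker genes (x axis, log scale) in each of 18 pups, coloured by group. With *Postn* in log2 CPM and the sum in log2 TPM, r is −0.99 over SAL pups and −0.80 over PNO pups. The 6 IUO pups lie between 2.80 and 3.30 TPM at every sum from 263 to 1270.

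Over all pups *Postn* did not follow the other members, though within PNO it did for many. Over 18 pups the median Pearson's r of the 33 other members with *Postn* on log2 CPM was 0.03 (Spearman's rho −0.07), where the median over all other genes tested was −0.01. The values ran from −0.58 for *Thbs1* to 0.58 for *Mgp*, and 14 of 33 were below 0. The median was −0.09 within SAL, 0.58 within PNO, where 21 of 33 were above 0.5, and −0.56 within IUO. It was 0.12 with group means removed and 0.07 without PNO pups 2 and 4, which lie farthest from the *Postn* median. The sign therefore differed between groups of 6 pups. In IUO it rests on *Postn* at 117 to 155 counts with a CV of 6.97%, where counting error was not separated. In PNO, pup 1 was the lowest of its group for 20 of 34 members, *Postn* among them. *Mgp* (rho 0.54), *Fbln5* (r 0.56, rho 0.53), *Col5a1* (r 0.51, rho 0.46) and *Dcn* (r 0.51, rho 0.52) were the 4 members above 0.5. With group means removed only *Col5a1* (r 0.78) was above 0.5, and *Mgp* was at 0.17. Without PNO pups 2 and 4 only *Fbln5* (r 0.56) was above it.

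*Col1a1* was followed by many members. This gene encodes the main chain of type I collagen. The median r of the 33 others with *Col1a1* was 0.63 (rho 0.64), against −0.01 over all other genes tested, and 11 of 33 were above 0.8. Within groups the median was 0.71 in SAL, 0.74 in PNO and 0.87 in IUO, and without IUO pups 2 and 5, the farthest from the *Col1a1* median, it was 0.58. *Col3a1*, the chain of type III collagen that shares fibrils with type I, had r 0.99. *Aldh1a2*, which makes retinoic acid, and *Slc22a6*, an organic anion transporter, both had r 0.97. *Cyp1b1* had 0.93, *Islr* 0.91, *Lox* 0.88, *Bgn* and *Col6a3* 0.87, *Lum* 0.85, *Col18a1* 0.84 and *Pcolce* 0.82. These points share libraries and dissections, and genes are not independent replicates.

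At the other end, *Postn* (r 0.01), *Fbln5* (0.02), *Col5a1* (0.14) and *Col6a1* (0.16) had the lowest r with *Col1a1*. Over the 561 pairs of members the median r was 0.39. With the mean of the other members, 11 members had r above 0.8 and 7 had r below 0.3, so that the list held a closely tied group and several genes apart from it. The 11 were *Col1a1*, *Col3a1*, *Col6a3* and 8 genes of other roles, and the 7 were *Postn*, *Fbln5*, *Col6a1*, *Col5a1*, *Loxl1*, *Nid1* and *Thbs1*. Over all pups these 7 followed the other members weakly. Within groups some of them followed *Col1a1*, as *Thbs1* did in SAL (r 0.76) and IUO (0.89) but not in PNO (−0.64), *Nid1* in SAL (0.82) and IUO (0.63) but not in PNO (−0.45), and *Postn* and *Col5a1* in PNO (both 0.74). In SAL and IUO, r with *Col1a1* was −0.07 and −0.70 for *Postn* and −0.42 and 0.0046 for *Col5a1*.

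**Figure D3:**
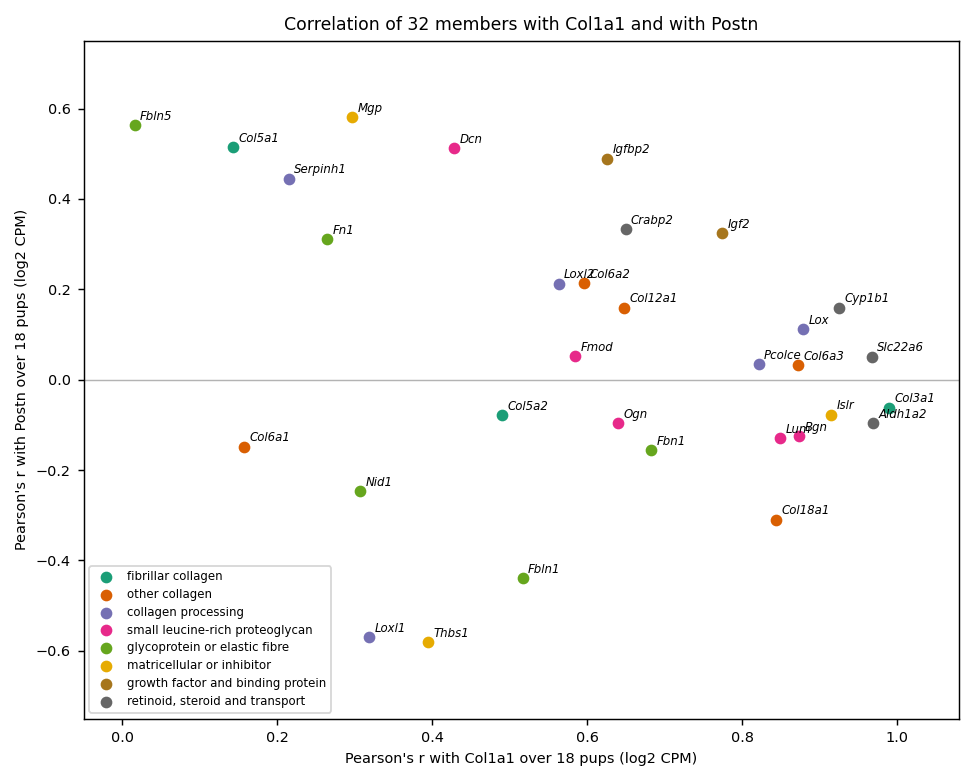
Pearson's r of 32 members with *Col1a1* (x axis) and with *Postn* (y axis) over 18 pups on log2 CPM, coloured by role. Members at the right, with r above 0.8 with *Col1a1*, lie between −0.31 and 0.16 for *Postn*.

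The group tied to *Col1a1* was high or low together in single pups of every group. *Col1a1* was 69.2, 78.0, 58.7, 38.3, 31.99 and 88.6 CPM in SAL pups 1 to 6. It was 28.8, 55.9, 41.3, 46.5, 84.7 and 55.0 CPM in PNO pups 1 to 6. It was 43.5, 27.3, 99.3, 58.2, 115.4 and 48.4 CPM in IUO pups 1 to 6. The spread within each group was thus wider than the gap between group means, which were 60.8 ± 22.3 (SD, n = 6), 52.0 ± 18.9 and 65.4 ± 34.4 CPM. IUO pup 5 was the highest of its group for 20 of 34 members, PNO pup 5 for 19 and SAL pup 6 for 16. IUO pup 2 was the lowest of its group for 21 members, PNO pup 1 for 20 and SAL pup 5 for 14. Summed over all members, TPM ran from 377.6 in IUO pup 2 to 823.8 in IUO pup 5. The members varied more within groups than most genes, with a median CV of 29.4% against 16.9% over all genes and 15.5% over the 12107 genes in the same CPM range.

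**Figure D4:**
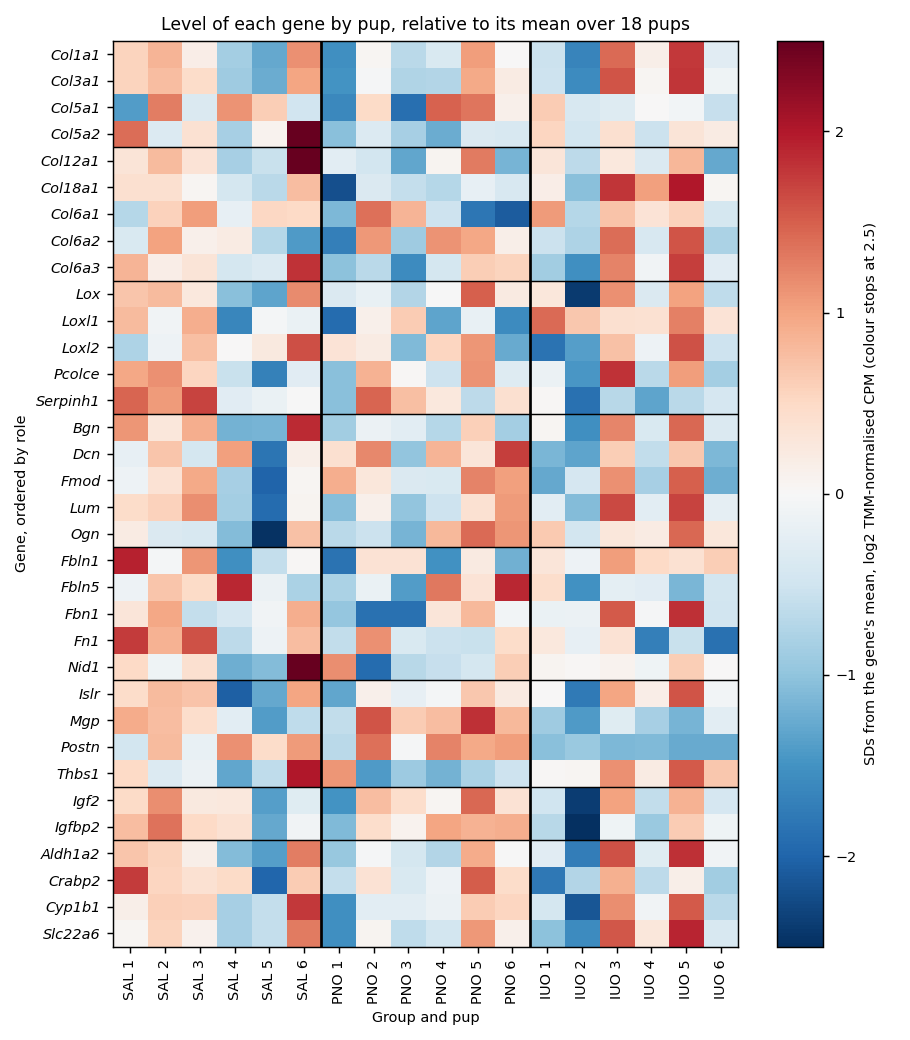
Each row is a member, ordered by role, and each column a pup. Colour gives the distance from the gene's mean over 18 pups in SDs of log2 CPM. Columns SAL 2, SAL 6, PNO 5, IUO 3 and IUO 5 are mostly red, with a mean of 0.56 to 0.89 SDs, and SAL 5, PNO 1 and IUO 2 mostly blue, with −1.09 to −0.83, and the *Postn* row is blue in all 6 IUO pups.

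The 10 genes outside the list most like the mean of the members were picked for their r with it, which is given as a description, beside a median of −0.01 over the 15669 genes tested that are not members. The first 2 were *Gjb2* (r 0.97, rho 0.96), a gap junction channel of the meninges, and *Slc6a13* (r 0.93, rho 0.94), a GABA and taurine transporter. *Ptgds*, a prostaglandin D synthase abundant in arachnoid, had r 0.90 and spanned 342 to 1873 TPM. *Wnt6*, *Mrgprf*, *RGD1566368*, *NEWGENE_1308171*, *Mrc1*, *Cpz* and *Thbd* came next, between 0.87 and 0.89. *Mrc1* marks macrophages of the brain's borders. Of 44 other fibroblast genes listed, which include *Gjb2*, *Slc6a13*, *Ptgds* and *Mrgprf*, 42 had a row and all were above 0 in some pup of each group. Their sum, led by *Ptn* and *Ptgds*, ran from 1507 to 3666 TPM and had r 0.90 with the mean of the members, *Ptgds* alone making up much of that range. Without the 4 picked genes, the 36 others tested had a median r of 0.64, from −0.46 to 0.84, and 32 were above 0.

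Over all pups, the sums for other cells had r with the mean of the members between −0.43 and 0.49, with larger values within some groups. The sum of 13 endothelial markers, led by *Cldn5* and *Slc2a1*, ran from 241 to 350 TPM and had r 0.23 with the mean of the members. That of 12 mural cell markers, led by *Rgs5* and *Tagln*, had r 0.35 over all pups, and 0.79, −0.51 and 0.61 within SAL, PNO and IUO. That of 12 choroid plexus markers, led by *Ttr* and *Folr1*, had r −0.31 over all pups, and 0.39, −0.84 and −0.54 within SAL, PNO and IUO. The sum of 8 border macrophage markers, led by *Pf4* and *Lyve1*, ran from 11.3 to 25.0 TPM, with r 0.49, and 0.73, 0.51 and 0.45 within SAL, PNO and IUO. Within the same 3 groups r was −0.16, −0.90 and −0.70 for myelin, 0.19, −0.72 and −0.65 for striatal markers, −0.66, 0.91 and 0.23 for red blood cell genes and 0.94, −0.74 and 0.27 for 8 astrocyte markers. Bone, muscle and skin markers summed to between 28.2 and 42.7 TPM over 14 genes, of which 10 to 13 were above 0 in each pup. Only *Sost*, of osteocytes, was at 0 in every SAL pup, and none was at 0 in all PNO pups or all IUO pups. The part of these cells in the members' levels was not tested.

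The fibrillar collagens build the load-bearing fibrils. By mean TPM in SAL, *Col3a1* stood at 21.8 and *Col1a1* at 17.5, with *Col5a2* at 14.1 and *Col5a1* at 14.0, the type V chains that start fibrils. *Col3a1* had a lowest, median and highest level of 35.0, 69.2 and 83.1 CPM in SAL, 31.8, 49.4 and 81.8 in PNO and 30.9, 56.1 and 113 in IUO. These ranges overlapped throughout, and its log2 fold changes were −0.24 (SE 0.305), 0.13 (SE 0.304) and 0.37 (SE 0.305). With a pup left out they ran from −0.41 to −0.13, from −0.09 to 0.27 and from 0.15 to 0.52. *Col5a2* was 25.3, 32.5 and 63.0 CPM in SAL and 22.9, 26.6 and 28.3 in PNO, with a log2 fold change of −0.52 (SE 0.169). It was the one member with an unadjusted p under 0.05 for PNO against SAL, where 4.5% of all genes were and 2.6% were so and lower (adjusted p = 0.912). Its value without SAL pup 6, the highest, was −0.31.

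Among the other collagens, the type VI chains form beaded filaments around cells and *Col18a1* is a basement membrane collagen. *Col6a1* was the most abundant of all collagens on the list, at 36.1 TPM in SAL, ahead of *Col6a2* at 18.2 and *Col6a3* at 4.29. The chains are partners in a single protein, yet *Col6a1* had r 0.11 with *Col6a2*, its neighbour on the chromosome, and *Col6a2* had r 0.38 with *Col6a3*. *Col18a1* was 25.7, 30.04 and 33.1 CPM in SAL, 19.6, 26.5 and 27.8 in PNO and 24.0, 32.2 and 41.1 in IUO. Of the 6 IUO pups 5 lay above every PNO pup, and the log2 fold change was 0.38 (SE 0.121, adjusted p = 0.166 in edgeR). *Col12a1*, which sits on fibril surfaces, was at 3.34 TPM in SAL and its 3 log2 fold changes lay between −0.30 and 0.04.

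Collagen is folded and finished by the next group. *Serpinh1*, the collagen chaperone HSP47, was the second most abundant member in SAL, at 72.1 TPM, but stood below *Igf2* in PNO and in IUO. Of all members *Serpinh1* varied least within groups, with a CV of 11.96%. It was 73.2, 82.7 and 97.8 CPM in SAL, 65.6, 80.1 and 94.5 in PNO and 58.2, 69.1 and 76.7 in IUO. Of the IUO pups 5 lay below every SAL pup, and the log2 fold change was −0.31 (SE 0.099, adjusted p = 0.498) for IUO against SAL and −0.22 (SE 0.099, adjusted p = 0.304) for IUO against PNO. *Loxl1*, a lysyl oxidase that acts on elastic fibres, was 11.4, 15.3 and 18.5 CPM in SAL, 10.8, 13.6 and 17.5 in PNO and 16.6, 17.2 and 20.4 in IUO. Its log2 fold change was 0.38 (SE 0.131, adjusted p = 0.187) for IUO against PNO. *Pcolce*, which speeds trimming of procollagen, and *Lox* and *Loxl2*, which cross-link it, had log2 fold changes between −0.21 and 0.02 in all comparisons.

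Of the small leucine-rich proteoglycans, which space and organise fibrils, *Dcn* (decorin) was 7.38, 18.8 and 32.3 CPM in SAL, 11.4, 26.4 and 46.3 in PNO and 9.59, 12.2 and 26.9 in IUO. Its log2 fold change for IUO against PNO was −0.78 (SE 0.366, adjusted p = 0.321). *Ogn* (osteoglycin) had the widest spread of any member, with a CV of 88.2%. It was 0.0838, 1.56 and 5.40 CPM in SAL, 0.628, 3.62 and 11.3 in PNO and 1.43, 3.30 and 11.5 in IUO, and its log2 fold changes of 1.20 (SE 0.750) and 1.16 (SE 0.748) against SAL came with adjusted p of 0.912 and 0.871. The first was 0.73 without PNO pup 5 and the second 0.63 without IUO pup 5. *Lum* (lumican) lies beside *Dcn* on chromosome 7, and their r was 0.53. *Lum*, *Bgn* (biglycan) and *Fmod* (fibromodulin) had log2 fold changes between −0.30 and 0.35.

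Glycoproteins and elastic fibre genes link fibrils, membranes and cells. *Fn1* (fibronectin) was 66.4, 86.0 and 101.2 CPM in SAL, 66.9, 68.7 and 91.0 in PNO and 53.8, 69.7 and 79.4 in IUO, with a log2 fold change of −0.33 (SE 0.123, adjusted p = 0.575) for IUO against SAL. *Nid1* (nidogen, of basement membranes), *Fbln1* and *Fbln5* (fibulins) and *Fbn1* (fibrillin, of microfibrils) had log2 fold changes between −0.31 and 0.30. *Nid1* was the most abundant of these, at 23.6 TPM in SAL.

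Beside *Postn*, the matricellular group held *Mgp*, an inhibitor of calcification. *Mgp* was 5.70, 9.93 and 13.4 CPM in SAL, 7.63, 12.7 and 18.5 in PNO and 5.66, 6.96 and 8.67 in IUO. Of the PNO pups, only pup 1 lay within the IUO range. Its log2 fold change for IUO against PNO was −0.90 (SE 0.218, adjusted p = 0.0987), the next smallest adjusted p after *Postn* among members. *Thbs1* (thrombospondin 1, which activates TGF-beta) was 1.49, 2.99 and 12.98 CPM in SAL, 1.37, 2.01 and 7.22 in PNO and 3.59, 4.74 and 9.58 in IUO. Each of SAL and PNO had a single high pup for *Thbs1*, and the log2 fold change for IUO against PNO was 1.00 (SE 0.498, adjusted p = 0.352). *Islr*, known as meflin in fibroblasts, had log2 fold changes of −0.08, 0.09 and 0.18.

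*Igfbp2*, which binds insulin-like growth factors, was the most abundant member at 150.4 TPM in SAL, and *Igf2*, a ligand, was at 66.9 TPM. *Igfbp2* was 75.6, 115 and 144 CPM in SAL, 78.9, 121 and 131 in PNO and 54.6, 94.0 and 120.5 in IUO. The groups overlapped, with log2 fold changes of 0.03 (SE 0.173), −0.31 (SE 0.173) and −0.33 (SE 0.173). *Igf2* followed *Col1a1* with r 0.77 and its log2 fold changes were 0.11, −0.17 and −0.28. With a pup left out these ran from −0.03 to 0.25, from −0.33 to −0.02 and from −0.44 to −0.13. In the last group, *Aldh1a2* was 5.16, 12.01 and 18.8 CPM in SAL, 6.35, 9.07 and 15.9 in PNO and 4.33, 9.26 and 24.6 in IUO, with log2 fold changes of −0.25 (SE 0.388), 0.20 (SE 0.386) and 0.45 (SE 0.388). Without IUO pup 5 the second was −0.09 and the third 0.15, and without IUO pup 3 they were −0.01 and 0.24. *Crabp2*, which carries retinoic acid in the cell, *Cyp1b1*, an oxidising enzyme, and *Slc22a6* had log2 fold changes between −0.39 and 0.38.

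**Figure D5:**
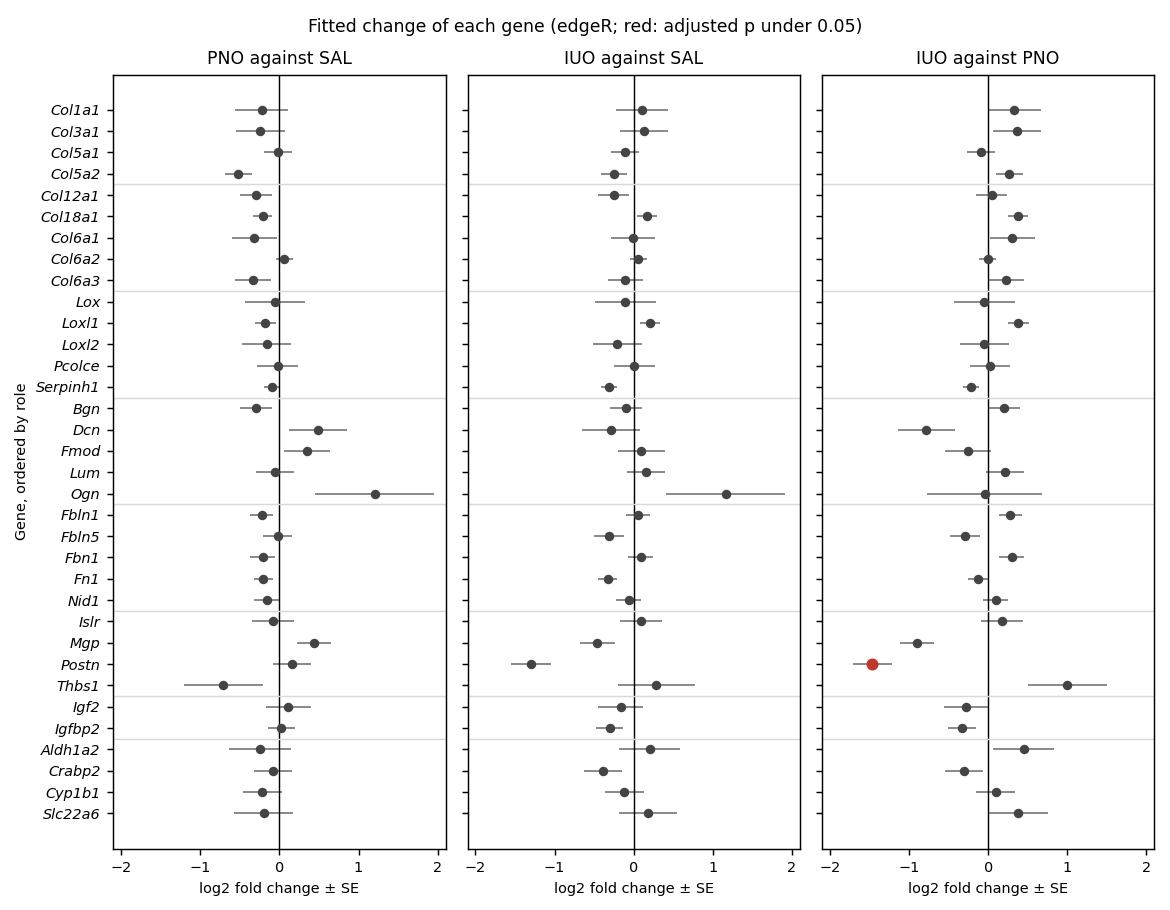
Fitted log2 fold change with its SE (x axis) of 34 members, ordered by role (y axis), in 3 comparisons. *Postn* in IUO against PNO (red) is the one member past an adjusted p of 0.05 in edgeR.

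Across all members the changes were small. The median log2 fold changes were −0.16, −0.08 and 0.07, beside 0.003, −0.007 and −0.0005 over all genes tested. The change was above 0 for 8, 15 and 19 of 34 members, beside 50.8%, 48% and 49.9% of all genes. With a pup left out, the medians ran from −0.23 to −0.06, from −0.14 to 0.04 and from −0.06 to 0.17. The second was above 0 without IUO pup 2 (0.04) or SAL pup 6 (0.03), and the third was below 0 without IUO pup 5 (−0.06). The median for PNO over SAL was −0.06 without SAL pup 6 and −0.08 without PNO pup 1. The sign of single members' changes turned in some fit with a pup left out for 11, 16 and 8 of 34. None of these was among the 8, 8 and 13 members with changes beyond 0.3 in size, of which 7, 4 and 7 moved by over 1.5 times, among them *Thbs1* for PNO over SAL, at −0.71, which was −0.06 without SAL pup 6 and −1.28 without PNO pup 1. At an unadjusted p under 0.05 there were 1, 4 and 6 members, beside 4.5%, 6.88% and 15.3% of all genes. The 4 were *Fn1*, *Mgp*, *Postn* and *Serpinh1*, all lower in IUO than in SAL, as were 3.87% of all genes. The 6 were *Dcn*, *Mgp*, *Postn* and *Serpinh1*, lower in IUO than in PNO as were 9.14% of all genes, with *Col18a1* and *Loxl1*, higher as were 6.14%. Nothing is read from these counts, since the list was chosen with the contrasts in view.

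EdgeR called no gene in the lists of related pathways. This held for 21 tested genes of collagen synthesis and secretion, 32 rows of other collagens (*Col23a1* has 2 identifiers), 14 matrix proteases and inhibitors, 22 TGF-beta pathway genes, 17 retinoic acid genes, 11 IGF system genes and 40 other fibroblast genes, in all 3 comparisons. With *Tgfbi*, which is on both the TGF-beta and the fibroblast list, counted once, these were 155 genes in 156 rows. Of the rows, 13, 8 and 21 had an unadjusted p under 0.05 (8.33%, 5.13% and 13.5%, beside 4.5%, 6.88% and 15.3% of all genes), DESeq2 called 0, 0 and 3 (*Col9a2*, *Igfbp6* and *Zic1*) and limma-voom 0, 1 (*Col15a1*) and 17. Of the 32 rows of other collagens, 6 had an unadjusted p under 0.05 and were lower in PNO than in SAL (2.6% of all genes), and 4 were so in IUO compared with SAL (3.87%). In IUO compared with PNO, 2 were higher (6.14% of all genes) and 4 lower (9.14%). For that comparison 4 of 17 retinoic acid genes had an unadjusted p under 0.05, all higher in IUO, as were 6.14% of all genes. Of the same 17 genes, 9 had log2 fold changes below 0, with a median of −0.05. The smallest adjusted p among all these lists was 0.102, for *Igfbp6*, an IGF2 binding protein of fibroblasts, with a log2 fold change of −1.40 (SE 0.350) for IUO against PNO. *Zic1*, a transcription factor of meninges and of the basal forebrain, had 1.61 (SE 0.435, adjusted p = 0.119), and *Col9a2* had −0.71 (SE 0.199, adjusted p = 0.125). The part of myelin in the members' differences was not tested.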

How the data were processed

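Total RNA from the PFC of P14 pups was made into libraries and sequenced by the authors as 75-base single reads. Per the file headers, each deposited table holds expected counts (estimated reads per gene) and TPM, and the aligner, quantifier, genome build and annotation are not given in the sources used here. Expected counts were rounded and fitted in edgeR 4.0.16 (R 4.3.3) with TMM normalisation, filterByExpr and a quasi-likelihood model over all 3 groups with 15 residual degrees of freedom. P-values were adjusted by Benjamini-Hochberg over 15703 genes, and a gene was called under 0.05. The procedure was tested on simulated data. TPM was used between genes and CPM between pups, and correlations used log2 CPM with a prior count of 2. The members, lists and tests were chosen with earlier results of these data known. Named genes were all members, list genes called, the 10 non-members most like the member mean and the top 2 genes by TPM of each other-cell list whose sum is given, except some not reported here. *Igfbp6*, *Zic1* and *Col9a2* were named after their values were seen. DESeq2 1.42.0, limma 3.58.1 and leaving out each pup were alternatives. No 2 pups of a group had identical values. Depth of 18381819 to 26084780 counts per pup left *Ogn* near 2 counts in 1 pup, and counting error is not the spread between pups.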

Additional observations from a re-analysis of the deposited data

Results flagged for a closer look

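Of 102 sets of 6 pups examined (34 members in 3 groups), 4 held a pup whose gap to the next was large for its group, and chance flags about 1 in 20 such sets. *Col18a1* was lowest in PNO pup 1, at 4.30 on the log2 CPM scale, with the next pup at 4.67. *Nid1* was highest in IUO pup 5, at 6.40, with the next at 6.26. *Crabp2* was lowest in SAL pup 5, at 1.77, with the next at 2.83. *Thbs1* was highest in PNO pup 1, at 2.87, with the next at 1.38, and without this pup its log2 fold change for IUO against PNO was 1.55 in place of 1.00.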

How the results depend on the processing

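With each of the 12 pups of a comparison left out in turn, the genes called numbered 0 throughout for PNO against SAL, 0 to 1 for IUO against SAL (1 without SAL pup 2) and 1 to 95 for IUO against PNO. The 95 came without PNO pup 5 and the 1 without PNO pup 4 or 6 or IUO pup 3, and leaving out any pup but PNO pup 1 moved the count of 10 by over 1.5 times. The call of *Postn* was lost for 8 of 12 pups, with members called at 0 to 1. Its adjusted p for IUO against PNO ran from 0.0118 to 0.102, and its log2 fold change from −1.62 to −1.35, under these fits. For IUO against PNO the genes called were 436 with DESeq2, 2028 with limma-voom and sample quality weights, 19 with no normalisation beyond library size and 72 with only the 12 pups compared, against 10. For IUO against SAL they were 49 with DESeq2 and 43 with limma-voom, against 0, and for PNO against SAL 1 with DESeq2. Members called for IUO against PNO were 2 with DESeq2 (*Postn* and *Mgp*) and 6 with limma-voom (*Postn*, *Mgp*, *Col18a1*, *Loxl1*, *Serpinh1* and *Thbs1*), and for IUO against SAL 1 with DESeq2 (*Postn*) and 2 with limma-voom (*Postn* and *Serpinh1*). The causes were not tested. No result changed sign while called.

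The median r of the other members with *Postn* was 0.58 within PNO and −0.56 within IUO, against 0.03. The median log2 fold changes of members stayed within their error under all alternatives, though 3 fits without a single pup turned their sign.

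Same-numbered pups had a mean correlation of 0.23, −0.03 and 0.06 in the 3 comparisons. Single pairs ran from −0.06 to 0.49 for PNO against SAL and fell as low as −0.30 for IUO against PNO. Whether replicate numbers pair the pups was not tested, as no different-numbered pups are set beside them. With the replicate block, 6 genes were called for IUO against PNO, *Postn* among them (log2 fold change −1.36, adjusted p = 0.0357), and 0 in both comparisons with SAL.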

Other observations

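Among genes outside the list, those that most resembled *Postn* over the 18 pups were chosen after their values were seen. *AABR07056330.1* had r 0.94 (rho 0.88), *Edrf1* 0.90 (rho 0.92), *Col9a2* 0.87 (rho 0.89), *Pramef8* 0.87 (rho 0.86) and *Ngb* 0.85 (rho 0.82). None of these is on the list of other fibroblast genes, and *Col9a2*, a chain of type IX collagen, is on the list of other collagens. The most opposite genes were *Isl1*, with r −0.88 (rho −0.75), *Arhgef10l*, with −0.86 (rho −0.87), and *Coro7*, with −0.83 (rho −0.85). *Isl1*, a transcription factor of striatal neurons, lay between 0.03 and 9.91 TPM (median 0.215) in SAL, between 0 and 5.41 (median 0.28) in PNO and between 2.78 and 11.4 (median 4.21) in IUO. Its r with *Postn* was −0.97 within SAL, −0.84 within PNO and 0.65 within IUO.

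Members that lie side by side on a chromosome did not all move together. *Col3a1* and *Col5a2*, with no protein-coding gene between them, had r 0.51. *Dcn* and *Lum* had 0.53 and *Col6a1* and *Col6a2* 0.11. *Islr* and *Loxl1*, with 3 genes between them, had 0.43, and *Col18a1* and *Col6a1*, with 2 between, had 0.40.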
